A study of Mus musculus with 16 samples.

Results

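The 10 genes described here encode cell adhesion molecules of the immunoglobulin (Ig) superfamily: the L1 family genes *Nfasc*, *Chl1*, *L1cam* and *Nrcam*, the NCAM gene *Ncam1*, the contactin gene *Cntn1*, and the Cadm genes *Cadm1*, *Cadm2*, *Cadm3* and *Cadm4*. They were picked by symbol out of the 30386 genes of the deposited table, with their levels in *Dbx2*-NSPCs and *GFP*-NSPCs already known, because relatives within these families moved in opposite directions between these groups. The values that chose them were therefore those of the transgene contrast, which is given below as a description. Where its calls for these genes are mentioned, nothing is read from them. Of the 10 genes, 9 had more than 1 CPM (the count of a gene per 1e6 reads of the sample) in at least 4 of the 16 samples and entered the fits with 12533 genes in all. *L1cam* did not.

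The cells were neural stem/progenitor cells (NSPCs) grown from the subventricular zone (SVZ) of mice of 3 months of age, in transgenic lines that constitutively expressed either a mouse *Dbx2* transgene (*Dbx2*-NSPCs, 8 samples) or a *GFP* transgene as the control (*GFP*-NSPCs, 8 samples). *Dbx2* encodes a homeodomain transcription factor, and the study asked which genes respond to it in NSPCs. The study used more than 1 pair of lines, and the sample labels carry the transgene and a number from 1 to 8, but not the line, so a difference between transgenes can also hold differences between the lines that carry them. Libraries held 1803928 to 3258885 reads in *GFP*-NSPCs and 2214008 to 3293285 in *Dbx2*-NSPCs, so that 1 read equalled 0.30 to 0.55 CPM and the floor used here, 3 reads, equalled 0.911 to 1.662 CPM. The *Dbx2* level averaged 77.2 ± 51.8 CPM with the *GFP* transgene and 155 ± 35.4 CPM with the *Dbx2* transgene (SD, n = 8 each; log2 fold change 1.26, limma adjusted p = 0.00978). Earlier results of these data had shown that the samples numbered 1 to 4 and those numbered 5 to 8 part from each other in both groups. Levels are therefore given by these sets of numbers, and the labels do not say what the numbers mark. *Dbx2* itself ran from 89.3 to 171 CPM in *GFP*-NSPCs numbered 1 to 4 and from 30.7 to 39.5 CPM in those numbered 5 to 8. In *Dbx2*-NSPCs it ran from 136 to 232 CPM and from 114 to 155 CPM. The groups thus overlapped in numbers 1 to 4 and were apart in numbers 5 to 8.

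Ig superfamily adhesion molecules reach out from the cell surface with a chain of Ig domains and bind the same or a related molecule on a neighbouring cell. The L1 family proteins cross the membrane and hold on to the spectrin skeleton through ankyrin, contactins are tied to the membrane by a lipid anchor, and NCAM can carry polysialic acid, a bulky sugar chain that loosens adhesion and is typical of the migrating neuroblasts of the SVZ. The Cadm proteins, also known as SynCAMs or nectin-like molecules, bind each other in preferred pairs between neurons or between axon and glia, and dock with protein 4.1 and PDZ scaffolds inside the cell. In the adult brain these families are best known from axons, nodes of Ranvier, myelin and synapses.

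Promoter sequences are shown for the 4 genes on which the results turn: *Nfasc* and *Cadm3*, which were higher in *Dbx2*-NSPCs in every sample, *Chl1*, which was lower at every number, and *Cadm2*, which lay lower in numbers 1 to 4 and higher in numbers 5 to 8. Each runs 5′ to 3′ from 250 bases before to 50 bases after the annotated start, as RefSeq gives it on GRCm38.p6. Capitals mark TAAT or ATTA, the same letters read on either strand and the core that homeodomain proteins commonly contact. Overlapping matches are counted separately. The windows are chr1:132707277-132707576 on the minus strand for *Nfasc* (the first of its listed starts, inside the span of the gene in the annotation used for positions), chr1:173367646-173367945 on the minus strand for *Cadm3*, chr6:103510626-103510925 on the plus strand for *Chl1*, and chr16:67620859-67621158 on the minus strand for *Cadm2*.
Nfasc: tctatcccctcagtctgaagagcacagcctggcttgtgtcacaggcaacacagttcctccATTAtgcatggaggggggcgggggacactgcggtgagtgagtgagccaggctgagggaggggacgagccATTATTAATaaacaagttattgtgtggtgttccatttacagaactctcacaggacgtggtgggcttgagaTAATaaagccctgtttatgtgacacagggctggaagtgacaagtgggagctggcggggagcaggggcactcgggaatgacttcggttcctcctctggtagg
Cadm3: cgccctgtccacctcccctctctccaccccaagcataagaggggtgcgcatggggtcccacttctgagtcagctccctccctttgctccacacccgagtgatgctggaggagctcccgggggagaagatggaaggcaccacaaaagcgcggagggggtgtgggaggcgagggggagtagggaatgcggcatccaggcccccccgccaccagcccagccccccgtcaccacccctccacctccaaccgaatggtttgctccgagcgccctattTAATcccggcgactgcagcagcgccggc
Chl1: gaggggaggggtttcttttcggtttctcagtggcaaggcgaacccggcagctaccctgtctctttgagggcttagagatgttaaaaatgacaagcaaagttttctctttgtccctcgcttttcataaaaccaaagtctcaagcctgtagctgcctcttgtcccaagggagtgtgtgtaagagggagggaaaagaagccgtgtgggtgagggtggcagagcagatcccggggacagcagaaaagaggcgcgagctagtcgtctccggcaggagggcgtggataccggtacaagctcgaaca
Cadm2: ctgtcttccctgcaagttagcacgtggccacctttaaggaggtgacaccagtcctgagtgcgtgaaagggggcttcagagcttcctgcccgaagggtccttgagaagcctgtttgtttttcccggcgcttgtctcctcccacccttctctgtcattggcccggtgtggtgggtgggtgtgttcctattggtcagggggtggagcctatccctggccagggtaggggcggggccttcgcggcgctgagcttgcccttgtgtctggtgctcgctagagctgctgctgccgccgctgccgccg
The *Nfasc* window held 5 matches, the *Cadm3* window 1, and the *Chl1* and *Cadm2* windows 0. Of all 32851 RefSeq promoters of this length, 58% held at least 1 match, and the longer TAATTA, found in 5.29% of them, was in none of the windows of these genes. Promoters were listed for 8 of the 10 genes, and those of *Ncam1* and *Cadm1* were not among them. The other listed starts held 1 match (second start of *Nfasc*), 1, 5 and 4 matches (*Cntn1*), and 0 matches (*L1cam*, *Nrcam*, *Cadm4*). These matches describe letters in a window and say nothing of binding.

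Between same-numbered samples of the transgenes, *Nfasc* and *Cadm3* had the higher value in the *Dbx2*-NSPC sample at 8 of 8 numbers, and *Chl1*, *Ncam1* and *Cadm1* the lower value at 8 of 8. *Cadm4* was higher at 7 of 8, *Nrcam* and *Cntn1* were lower at 6 of 8, and *Cadm2* was higher at 4 and lower at 4. These counts describe the contrast that chose the genes, and nothing is read from them. *Nfasc* thus lay opposite to *Chl1* in the L1 family, and *Cadm3* opposite to *Cadm1* in the Cadm family. The median log2 fold change of the 9 tested genes was -0.28, beside -0.02 over all tested genes, and the median of its absolute value was 0.57 beside 0.23. The 8 samples of one transgene lay wholly above those of the other for 2 of the genes, *Nfasc* and *Cadm3*, and for 3.41% of all tested genes. The choice of the genes shaped these medians and this share too, and nothing is read from them. In whole cultures, fewer cells of a type and less RNA per cell cannot be told apart in any of these values.

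**Figure D1:**
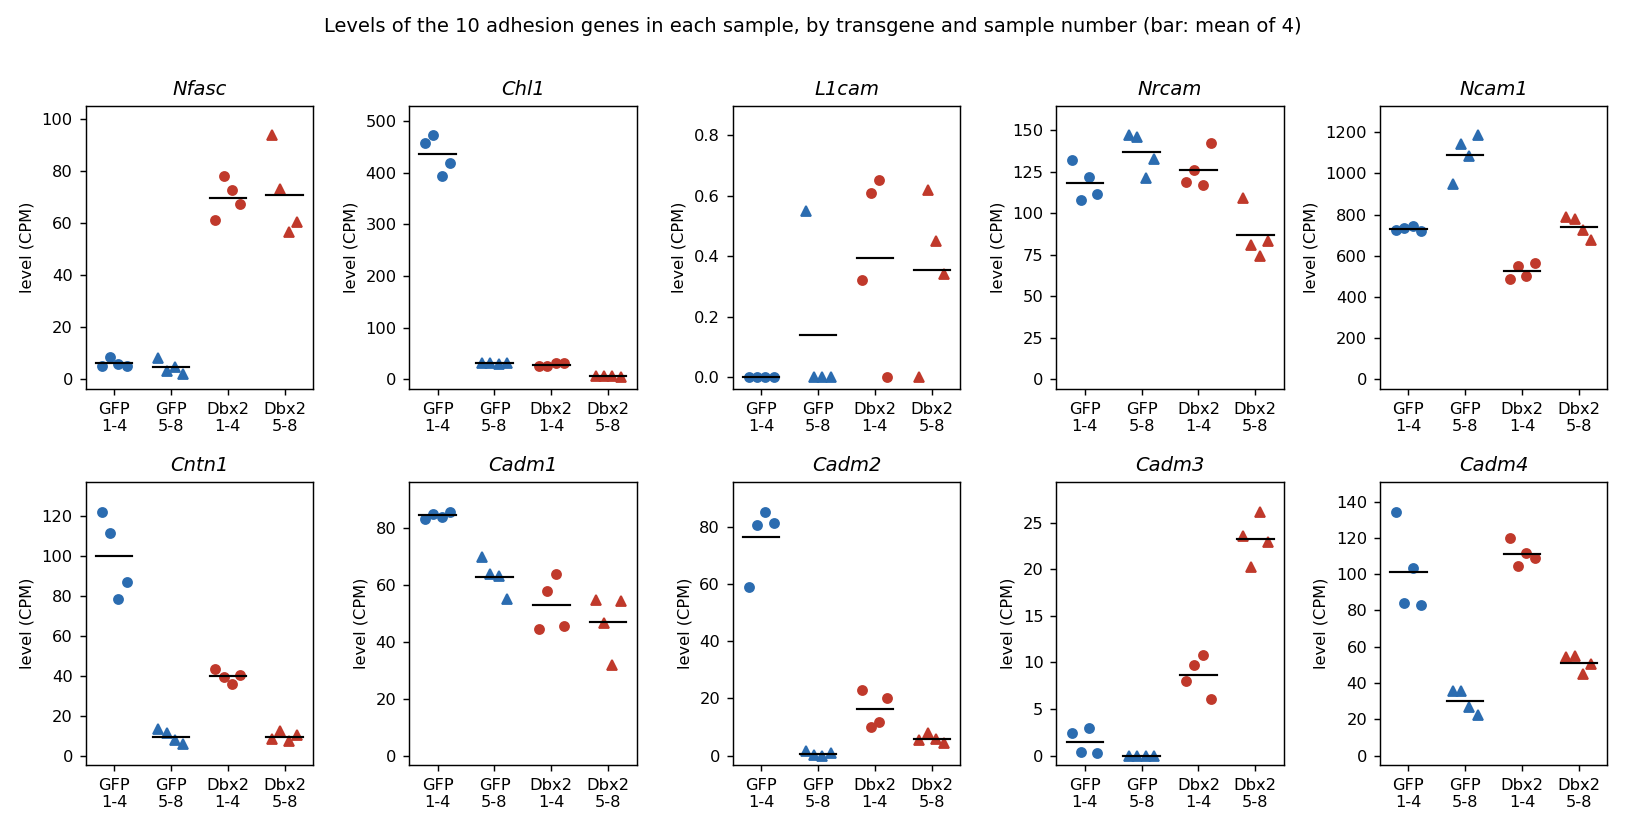
Level of each of the 10 genes in each sample (CPM, linear axis from about 0), with GFP-NSPCs in blue, Dbx2-NSPCs in red, samples numbered 1 to 4 as circles and 5 to 8 as triangles, and a bar at the mean of 4 samples. Nfasc and Cadm3 are high in all 8 Dbx2-NSPC samples, Chl1 is high only in the 4 GFP-NSPC samples numbered 1 to 4, and L1cam stays at or under 0.65 CPM.

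**Figure D2:**
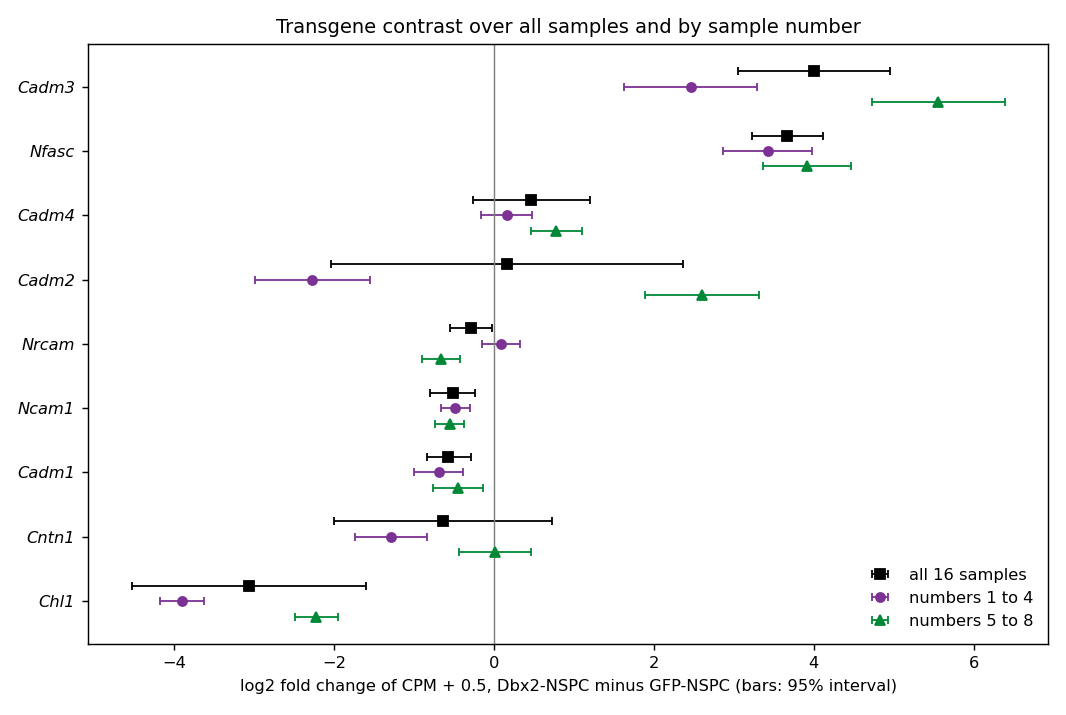
Log2 fold change of CPM + 0.5 between Dbx2-NSPCs and GFP-NSPCs for the 9 tested genes, over all 16 samples (squares), within numbers 1 to 4 (circles) and within numbers 5 to 8 (triangles), with 95% intervals from limma. Cadm2 lies at -2.27 in numbers 1 to 4 and at 2.60 in numbers 5 to 8, and its interval over all samples spans -2.04 to 2.37.

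*Nfasc* (ENSMUSG00000026442; chromosome 1, 132564690 to 132741797, GRCm38) encodes neurofascin, which assembles sodium channels at nodes and axon initial segments and also serves the glial side of the paranode. In *GFP*-NSPCs numbered 1 to 4 it was at 5.24, 8.46, 5.86 and 5.0 CPM, and in those numbered 5 to 8 at 8.31, 3.37, 4.78 and 2.06 CPM. With the *Dbx2* transgene it was at 61.00, 78.00, 72.62 and 67.46 CPM in numbers 1 to 4 and at 93.63, 73.00, 56.43 and 60.44 CPM in numbers 5 to 8. All *GFP*-NSPC samples were low, all *Dbx2*-NSPC samples were high, and the sets of numbers overlapped within each group. The means were 5.38 ± 2.2 and 70.3 ± 12 CPM (SD, n = 8 each), 13.1-fold higher in *Dbx2*-NSPCs, with a log2 fold change of 3.67 (standard error 0.213) on the log2(CPM + 0.5) scale used throughout. The *GFP*-NSPC level rested on 5 to 24 reads per sample.

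*Chl1* (ENSMUSG00000030077; chromosome 6, 103510586 to 103750211) encodes the close homologue of L1, which promotes neurite outgrowth and neuronal migration. In *GFP*-NSPCs it was at 458.06, 472.27, 392.95 and 419.22 CPM in numbers 1 to 4 and at 31.58, 32.51, 30.05 and 31.25 CPM in numbers 5 to 8. In *Dbx2*-NSPCs it was at 25.36, 26.71, 31.59 and 31.22 CPM in numbers 1 to 4 and at 7.39, 6.83, 5.87 and 5.40 CPM in numbers 5 to 8. Each set of 4 was tight, and the groups did not overlap within either set. Over all samples they did overlap, since *GFP*-NSPCs numbered 5 to 8 lay beside *Dbx2*-NSPCs numbered 1 to 4. The mean of *Dbx2*-NSPCs was 15.2-fold lower in numbers 1 to 4 and 4.92-fold lower in numbers 5 to 8. Over all samples the log2 fold change was -3.06 (standard error 0.701).

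The other L1 family genes had a smaller contrast or were scarcely detected. *Nrcam* (ENSMUSG00000020598; chromosome 12, 44328885 to 44601964), which clusters with neurofascin at nodes, ran from 107.93 to 146.84 CPM in the control samples and from 74.49 to 142.45 CPM with the *Dbx2* transgene. In numbers 5 to 8 the *Dbx2*-NSPC samples, at 74.49 to 109.11 CPM, all lay below the *GFP*-NSPC samples, at 120.89 to 146.84 CPM, while in numbers 1 to 4 the groups overlapped. *L1cam* (ENSMUSG00000031391; chromosome X, 73853778 to 73896105), the founding member of the family, had 0 or 1 read in each *GFP*-NSPC sample and 0 to 2 in each *Dbx2*-NSPC sample, 1 and 9 reads in total. Both groups were under the floor, and a difference in *L1cam* was not detectable at this depth. The summed level of the 4 L1 family genes was 520 to 595 CPM in *GFP*-NSPCs numbered 1 to 4, 156 to 187 CPM in those numbered 5 to 8, 205 to 241 CPM in *Dbx2*-NSPCs numbered 1 to 4 and 137 to 210 CPM in those numbered 5 to 8.

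*Ncam1* (ENSMUSG00000039542; chromosome 9, 49502136 to 49798925) ranged from 720.80 to 746.16 CPM in *GFP*-NSPCs numbered 1 to 4 and from 949.76 to 1184.38 CPM in those numbered 5 to 8. In *Dbx2*-NSPCs it ranged from 486.73 to 565.12 CPM and from 674.93 to 785.97 CPM. In both sets all *Dbx2*-NSPC samples were below all *GFP*-NSPC samples, 1.39-fold lower by the means in numbers 1 to 4 and 1.47-fold lower in numbers 5 to 8. The log2 fold change over all samples was -0.51 (standard error 0.137). *Ncam1* was measured with the most reads of the 10 genes, 1714 to 3718 per *GFP*-NSPC sample.

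*Cntn1* (ENSMUSG00000055022; chromosome 15, 92051165 to 92341967) encodes contactin 1, a partner of neurofascin and Caspr at the paranode and of receptor phosphatases. In *GFP*-NSPCs it was at 122.07, 111.10, 78.53 and 86.98 CPM in numbers 1 to 4 and at 13.30, 11.35, 7.85 and 5.76 CPM in numbers 5 to 8. The *Dbx2*-NSPC samples were at 43.34, 39.46, 35.82 and 40.54 CPM and at 8.10, 12.42, 7.22 and 10.13 CPM. The transgenes were thus apart in numbers 1 to 4, where *Dbx2*-NSPCs were 2.5-fold lower, and overlapped in numbers 5 to 8, where the means were 9.56 and 9.47 CPM. The log2 fold change was -1.29 (95% interval -1.74 to -0.84) in numbers 1 to 4 and 0.02 (-0.43 to 0.47) in numbers 5 to 8.

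*Cadm3* (ENSMUSG00000005338; chromosome 1, 173333258 to 173367695) encodes an axonal Cadm protein that binds Cadm4 on glia. In *GFP*-NSPCs numbered 1 to 4 it was at 2.42, 0.35, 2.93 and 0.33 CPM, and in numbers 5 to 8 it had 0 reads in every sample. In *Dbx2*-NSPCs it was at 8.03, 9.71, 10.75 and 6.10 CPM in numbers 1 to 4 and at 23.58, 20.19, 26.18 and 22.96 CPM in numbers 5 to 8. No sample of one group reached the other. In numbers 5 to 8 *Cadm3* was at least 19.2-fold higher in *Dbx2*-NSPCs, taking the mean floor of 3 reads per library (1.21 CPM) for *GFP*-NSPCs, and in numbers 1 to 4 it was 5.74-fold higher, against a *GFP*-NSPC mean that rests on 17 reads. The fitted log2 fold change of 4.01 (standard error 0.453) depends on the pseudocount. *Ackr1*, a chemokine receptor gene on the same strand, overlaps the end of *Cadm3* by 493 bases. *Ackr1* had 0 reads in all *GFP*-NSPC samples, 0.36 to 1.95 CPM in *Dbx2*-NSPCs numbered 1 to 4 and 3.11 to 5.98 CPM in those numbered 5 to 8. How reads in the shared stretch were counted is not given in the sources used here, so the split between *Cadm3* and *Ackr1* is uncertain.

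*Cadm1* (ENSMUSG00000032076; chromosome 9, 47530173 to 47857637) encodes SynCAM1, which can induce synapses in neurons that contact it. It ran from 83.39 to 85.98 CPM in *GFP*-NSPCs numbered 1 to 4 and from 55.11 to 69.82 CPM in those numbered 5 to 8. In *Dbx2*-NSPCs it ran from 44.63 to 63.82 CPM and from 32.05 to 54.91 CPM. *Dbx2*-NSPC samples were all below *GFP*-NSPC samples within each set, though by under 1 CPM at the closest in numbers 5 to 8. The log2 fold change was -0.57 (standard error 0.133).

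*Cadm2* (ENSMUSG00000064115; chromosome 16, 66655421 to 67620908), whose protein pairs with Cadm1, changed sides between the sets. In *GFP*-NSPCs it was at 58.82, 80.77, 85.37 and 81.31 CPM in numbers 1 to 4 and at 1.66, 0.31, 0 and 0.82 CPM in numbers 5 to 8, where all 4 samples together held 6 reads. The *Dbx2*-NSPC samples were at 23.12, 10.02, 11.72 and 20.09 CPM and at 5.63, 7.77, 5.87 and 4.39 CPM. *Dbx2*-NSPC samples all lay below *GFP*-NSPC samples in numbers 1 to 4 and all above them in numbers 5 to 8. The means differed 4.72-fold in numbers 1 to 4, and in numbers 5 to 8 they were 0.698 CPM (*GFP*) and 5.92 CPM (*Dbx2*). The log2 fold changes of the sets were -2.27 (95% interval -2.99 to -1.55) and 2.60 (1.89 to 3.32), and that over all samples, 0.17, describes neither.

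*Cadm4* (ENSMUSG00000054793; chromosome 7, 24482023 to 24504539), the glial partner of Cadm3, ranged from 82.98 to 134.56 CPM in *GFP*-NSPCs numbered 1 to 4 and from 104.40 to 119.76 CPM in *Dbx2*-NSPCs of those numbers. In numbers 5 to 8 it ranged from 22.21 to 35.58 CPM and from 45.15 to 54.67 CPM, all *Dbx2*-NSPC samples being higher. Over all samples the log2 fold change was 0.47 (standard error 0.351), with or without the replicate number as a block. The summed level of the 4 Cadm genes was 250 to 279 CPM in *GFP*-NSPCs numbered 1 to 4 and 78.1 to 107 CPM in those numbered 5 to 8, and 180 to 198 CPM and 109 to 139 CPM in *Dbx2*-NSPCs.

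The choice of the genes did not use the difference between the sets of numbers within a transgene, and this difference was fitted. The sets themselves were taken from earlier results of these same data. The levels of both sets also enter the contrast that chose the genes. Counts of genes called between the sets, here and below, are therefore a description. A difference is said to be called where its adjusted p was under 0.05, and the p-values measure the spread between cultures. In *GFP*-NSPCs, *Chl1*, *Cntn1*, *Cadm1*, *Cadm2* and *Cadm4* were lower in the samples numbered 5 to 8 and *Ncam1* was higher. With *Cadm3*, whose *GFP*-NSPC levels were at or near the floor, 7 of the 9 tested genes were called, beside 28.6% of all tested genes. By the means, *Chl1* was 13.9-fold lower, *Cntn1* 10.4-fold, *Cadm4* 3.37-fold and *Cadm1* 1.34-fold lower, and *Ncam1* was 1.49-fold higher. The log2 differences were -3.77 for *Chl1* (limma adjusted p = 1.66e-16), -3.36 for *Cntn1* (1.72e-11), -1.73 for *Cadm4* (4.01e-09) and 0.57 for *Ncam1* (1.79e-05). *Cadm2* was at or near 0 in numbers 5 to 8, and its fitted difference of -6.20 (limma adjusted p = 1.12e-12) depends on the pseudocount. *Cadm3* passed the filter through its level in *Dbx2*-NSPCs, and its fitted difference of -1.71 in *GFP*-NSPCs (limma adjusted p = 0.00218) sets 17 reads in all against 0, so no direction is read from it. That of *Cadm1*, -0.43 (limma adjusted p = 0.035), had an adjusted p of 0.0165 to 0.104 over the alternatives and was lost in 9 of 16. *Nfasc* differed by -0.49 (95% interval -1.04 to 0.06) and *Nrcam* by 0.21 (-0.03 to 0.45), neither called. Without *GFP*-NSPC number 5, *Nfasc* differed by -0.80 and was called.

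*Dbx2*-NSPCs, which share no samples with *GFP*-NSPCs, were compared in the same way. The study made its lines in pairs, each pair from its own derivation of SVZ cells. If the sets follow the pairs, which the labels do not say, this comparison is not an independent repeat. *Chl1* (log2 difference -2.09, limma adjusted p = 1.32e-11), *Cntn1* (-2.04, 2.06e-07), *Cadm4* (-1.11, 9.42e-06), *Cadm2* (-1.33, 0.00883) and *Nrcam* (-0.54, 0.00154) were lower in numbers 5 to 8, while *Ncam1* (0.49, 2.38e-04) and *Cadm3* (1.40, 0.0164) were higher. These are 7 of the 9 tested genes, beside 17.5% of all tested genes. *Chl1*, *Cntn1*, *Cadm2* and *Cadm4* were thus lower in numbers 5 to 8 with either transgene and *Ncam1* was higher. With a pseudocount of 0.1 the calls of *Cadm2* and *Cadm3* were lost, and that of *Cadm3* also without *Dbx2*-NSPC number 7 (log2 difference 1.34). *Cadm1* differed by -0.19 (95% interval -0.50 to 0.12) and *Nfasc* by 0.00 (-0.55 to 0.55).

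**Figure D3:**
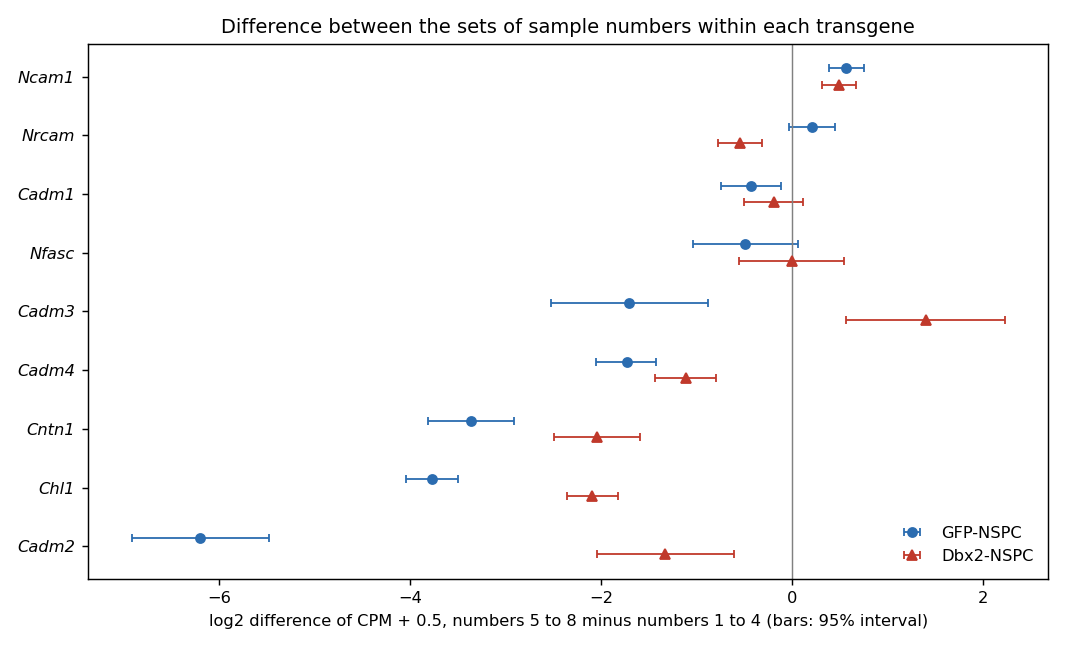
Log2 difference of CPM + 0.5 between the samples numbered 5 to 8 and those numbered 1 to 4, within GFP-NSPCs (blue circles) and within Dbx2-NSPCs (red triangles), for the 9 tested genes, with 95% intervals from limma. Chl1, Cntn1, Cadm2 and Cadm4 lie left of 0 in both groups, Ncam1 lies right of 0 in both, and Cadm3 lies at -1.71, from GFP-NSPC levels at or near the floor, and at 1.40.

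Whether the transgene contrast itself differed between the sets of numbers was tested with an interaction term. The difference was called for *Chl1*, *Nrcam*, *Cntn1* and *Cadm2*. With *Cadm3*, which passed the filter through its level in *Dbx2*-NSPCs, these were 5 of the 9 tested genes, beside 9.44% of all tested genes. That of *Cadm2* was 4.87 on the log2 scale (standard error 0.492, limma adjusted p = 1.61e-07), and it changed sign between the sets. The fitted contrast of *Cadm3* was larger in numbers 5 to 8, by 3.10 (standard error 0.569, limma adjusted p = 4.66e-04). Part of this is the *GFP*-NSPC difference of -1.71, which sets 17 reads against 0. That of *Chl1* was smaller there, by 1.68 (standard error 0.186, limma adjusted p = 5.69e-07), as was that of *Cntn1*, by 1.32 (standard error 0.308, limma adjusted p = 0.00549). The contrast of *Nrcam* was -0.66 in numbers 5 to 8 and 0.09 in numbers 1 to 4, a difference of -0.75 (standard error 0.164, limma adjusted p = 0.0029). These 5 calls were kept in every alternative that gave a value, although the sizes for *Cadm2* and *Cadm3*, whose levels near the floor enter the difference, ran from 3.74 to 5.84 and from 1.98 to 6.50. The contrasts of *Nfasc* (difference 0.49, 95% interval -0.29 to 1.27), *Ncam1* (-0.08, -0.33 to 0.18) and *Cadm1* (0.24, -0.20 to 0.68) were not called different, and neither was that of *Cadm4* (0.62, 0.17 to 1.07) except with the replicate block or without *GFP*-NSPC number 5.

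The partners of these molecules were followed in lists of 129 further genes, also drawn up with earlier results known. Of these, 95 were tested, 11 were called higher in *Dbx2*-NSPCs and 16 lower, and 68 were not called, beside 8.03% of all 12533 tested genes called higher and 7.78% lower, 15.8% in all. The median log2 fold change was 0.03, beside -0.02 over all tested genes. With the replicate block, 23 were called higher and 19 lower, beside 21.7% of all tested genes called in either direction. The remaining genes of the same families were mostly silent: 2 of 6 were tested, and of these *Cntn2*, named here after its values were seen, was higher (0.354 and 3.29 CPM), with log2 fold changes of 0.07 in numbers 1 to 4 and 3.38 in numbers 5 to 8. Its call was lost in numbers 1 to 4 alone, without *GFP*-NSPC number 5, 6 or 7 and without *Dbx2*-NSPC number 5, 6, 7 or 8.

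Among the ankyrin, spectrin and Caspr partners, which tie L1 family proteins to the membrane skeleton and to contactin, 12 were tested, 1 was higher and 2 were lower. *Cntnap4*, a Caspr relative named after its values were seen, was lower (1.95 and 0.176 CPM). The contrast differed between the sets of numbers for 3 of the 12, beside 9.44% of all tested genes. Among these was the ankyrin gene *Ank3*, also named after its values were seen and not called over all samples (31.3 and 9.83 CPM). Its log2 fold change was 1.49 in numbers 1 to 4 and -5.14 in numbers 5 to 8 (limma adjusted p of the difference = 3.61e-10).

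Among 17 tested ligands and matrix partners, 1 was higher and 3 were lower (4 and 3 with the replicate block). *Prnp*, the prion protein and an NCAM ligand, rose from 196 ± 48.5 to 290 ± 49.9 CPM (SD, n = 8 each; log2 fold change 0.57, limma adjusted p = 0.00414). *Tnc*, the matrix protein tenascin C, fell from 336 ± 102 to 203 ± 45.1 CPM (log2 fold change -0.69, limma adjusted p = 0.0167). Its contrast was -0.14 in numbers 1 to 4 and -1.24 in numbers 5 to 8, which differed (limma adjusted p = 0.00265). *Ptprg*, a receptor phosphatase that binds contactins, fell from 68.2 ± 7.78 to 52.4 ± 7.47 CPM (log2 fold change -0.38, limma adjusted p = 0.0136). The third lower gene, *Vcan*, encodes the matrix proteoglycan versican and had means of 6.68 and 1.7 CPM. Among 9 tested enzymes that add polysialic acid or related sugars or shed the molecules, limma called 0, with 3 at an unadjusted p under 0.05. The replicate block called 2 higher and 1 lower, and edgeR, DESeq2 and each other scaling called 1 higher. With the set of numbers as a covariate, limma called 3 higher and 1 lower, and edgeR 2 higher and 1 lower. *St8sia2*, a polysialyltransferase, was at 2.68 and 1.51 CPM.

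Of the scaffolds that dock with Cadm proteins, 15 were tested, 2 were higher and 4 lower (4 and 5 with the replicate block). *Apba1*, an adaptor of the Cask complex, rose from 4.44 ± 3.98 to 11.6 ± 4.98 CPM (log2 fold change 1.64, limma adjusted p = 0.0166). The protein 4.1 genes went both ways, *Epb41l1* rising from 13.4 ± 3.96 to 31.7 ± 14.4 CPM (1.13, limma adjusted p = 0.00296) and *Epb41* falling from 83.4 ± 15.1 to 50.1 ± 10.4 CPM (-0.74, limma adjusted p = 0.00342). *Mpp6*, a membrane-associated guanylate kinase, fell from 114 ± 24.4 to 81.4 ± 16.3 CPM (-0.48, limma adjusted p = 0.0219), each SD over 8 samples. The other lower genes, named after their values were seen, were *Cask* (129 and 97.4 CPM) and *Epb41l2* (104 and 80.6 CPM). The call of *Epb41l2* was lost with either other scaling, with eBayes without trend, in numbers 1 to 4 alone, with edgeR, and without *GFP*-NSPC number 1, 2, 7 or 8 or *Dbx2*-NSPC number 4, 5, 6 or 8.

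In the nectins, the closest relatives of the Cadm family, 5 were tested. *Pvr*, a nectin-like receptor, rose from 35.3 ± 10.1 to 60.1 ± 13.1 CPM (log2 fold change 0.79, limma adjusted p = 0.00263), and *Nectin3* fell from 136 ± 21.8 to 87.8 ± 10.8 CPM (-0.62, limma adjusted p = 3.40e-04). Of the 5 IgLON genes, lipid-anchored adhesion molecules of neurons, 2 were lower. *Ntm*, neurotrimin, fell from 127 ± 96 to 36.4 ± 35.9 CPM (-2.15, limma adjusted p = 0.0257), and *Opcml*, named after its values were seen, had means of 4.32 and 1.47 CPM. The call of *Ntm* was lost with edgeR and without *GFP*-NSPC number 4 or *Dbx2*-NSPC number 5, 6, 7 or 8 (limma adjusted p up to 0.0545), and that of *Opcml* in numbers 1 to 4 alone and without *GFP*-NSPC number 8. Of 30 other tested Ig superfamily adhesion genes, 5 were higher and 4 lower (10 and 4 with the replicate block). *Alcam* rose from 2.42 ± 1.65 to 12.3 ± 5.06 CPM (2.27, limma adjusted p = 2.53e-04) and *Igsf3* from 9.28 ± 2.44 to 18.9 ± 6.73 CPM (0.96, limma adjusted p = 0.00342). *Mpzl1*, a relative of myelin protein zero, fell from 75.2 ± 19.6 to 45.7 ± 11.9 CPM (-0.71, limma adjusted p = 0.00747), and *Cd47*, the ligand of the Sirpa receptor, from 65.7 ± 3.22 to 45.6 ± 7.15 CPM (-0.54, limma adjusted p = 5.71e-04), each SD over 8 samples. Also higher, and named after their values were seen, were the sidekick genes *Sdk1* (0.0762 and 2.81 CPM) and *Sdk2* (1.52 and 7.44 CPM) and *Nptn* (134 and 170 CPM), and also lower were *Igsf11* (9.91 and 3.3 CPM) and *Vstm2b* (1.66 and 0.241 CPM). With only the samples numbered 1 to 4, the calls of *Tnc*, *Prnp*, *Epb41*, *Igsf3* and *Nptn* were lost, and with only those numbered 5 to 8 the calls of *Ptprg*, *Cask* and *Vstm2b*.

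**Figure D4:**
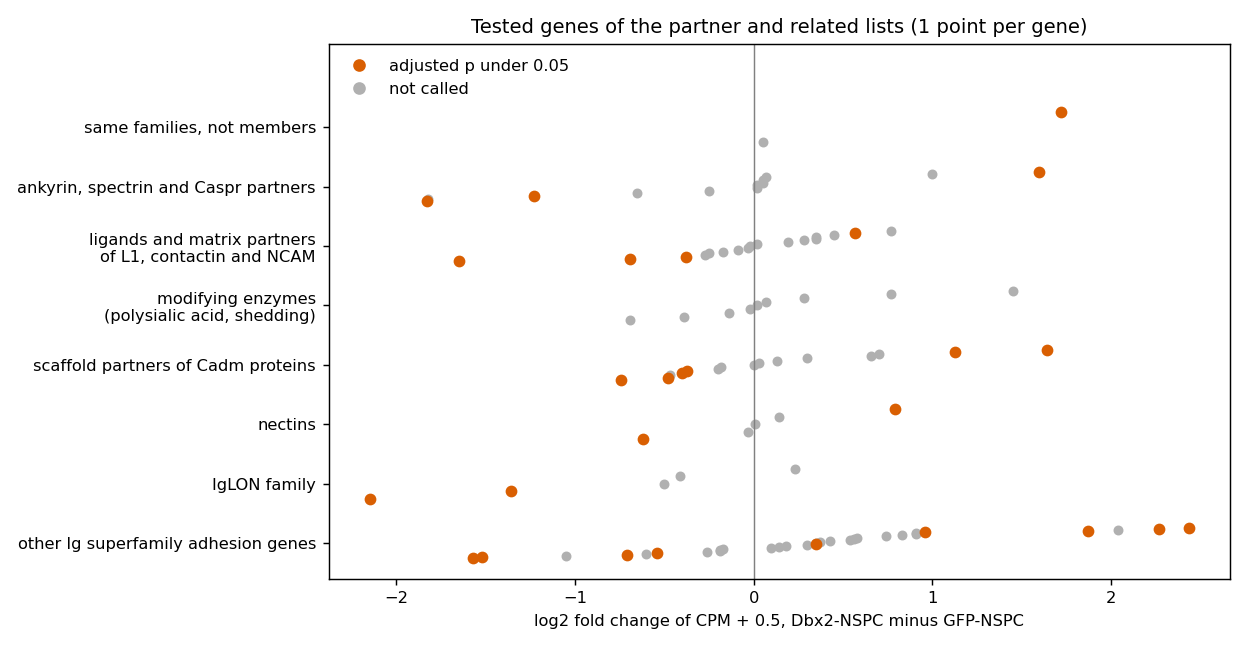
Log2 fold change of CPM + 0.5 between Dbx2-NSPCs and GFP-NSPCs for the 95 tested genes of the partner and related lists, 1 point per gene, with called genes (limma adjusted p under 0.05) in orange and the others in grey. Called genes lie on both sides of 0 in most lists, the 2 called IgLON genes lie left of 0, and no modifying enzyme was called.

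The genes whose pattern over the 16 samples came closest to that of *Nfasc*, by the root mean square difference of centred log2 values among 8650 genes of at least 10 CPM on average, were *Gnao1* (0.70), *Cd109* (0.77) and *Inf2* (0.78), beside a median of 1.93 over all those genes. *Gnao1*, a G protein alpha subunit of neurons, had means of 11.5 and 12.1 CPM in the sets of *GFP*-NSPCs and 87.3 and 69.9 CPM in those of *Dbx2*-NSPCs. Closest to *Chl1* was the IgLON gene *Ntm* (0.86), with 211, 43.6, 65.7 and 7.11 CPM in *GFP*-NSPCs numbered 1 to 4 and 5 to 8 and *Dbx2*-NSPCs numbered 1 to 4 and 5 to 8. *Chrdl1*, a BMP antagonist gene, followed at 1.06 (median 2.18). Closest to *Cadm3* was *Nfasc* (0.95), followed by *Cd109* (0.99) and *Ptprn* (1.07; median 2.25 over 8651 genes). All of these share the same libraries.

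On the chromosomes, *Cadm1* and *Ncam1* are neighbours on chromosome 9, 1.64 Mb apart, and *Nfasc* and *Cadm3* lie 40.6 Mb apart on chromosome 1. The 20 nearest tested genes around each of the 10 had median log2 fold changes between the transgenes of -0.23 (*Nrcam*) to 0.14 (*Cadm3*). Around *Nfasc* the median was 0.10 and around *Chl1* 0.03, beside 3.67 and -3.06 for the genes themselves. Apart from *Ackr1*, the overlapping genes in the table had at most 1 read in any sample, except *Arhgap4* beside *L1cam*, with at most 9.

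The labels call the cells proliferating NSPCs, and all 10 markers of that kind were tested, with a summed level of 7140 to 8060 CPM in the controls and 6230 to 7570 CPM in *Dbx2*-NSPCs. *Fabp7*, *Egfr* and *Pax6* were lower in *Dbx2*-NSPCs. Markers of neuroblasts and neurons (10 of 12 tested, 1 lower, *Map2*) summed to 935 to 1310 CPM and 794 to 950 CPM, most of it *Map2*, with *Stmn2* at 0 in every sample. Those of the oligodendrocyte lineage (7 of 12 tested, 1 higher, *Cnp*) summed to 1320 to 1870 CPM and 1430 to 1830 CPM, most of it *Olig1*, with *Mog* at 0 and *Sox10*, *Mag* and *Enpp6* at or under 3 reads in every sample. Astrocyte markers (7 of 8 tested, *Gfap* and *Aldoc* higher, *Slc1a3* and *Aldh1l1* lower) summed to 2230 to 2790 CPM in *GFP*-NSPCs numbered 1 to 4 and 883 to 1140 CPM in those numbered 5 to 8. In *Dbx2*-NSPCs they summed to 1390 to 1880 CPM and 1170 to 1330 CPM. The tested markers of neuroblasts and neurons went both ways between these sets of *GFP*-NSPCs. By the means, *Elavl3* (58.1 and 9.49 CPM), *Gad1* (23.2 and 2.43 CPM), *Rbfox3*, *Dcx*, *Syt1* and *Snap25* were lower in numbers 5 to 8. *Map2* (860 and 1250 CPM), *Tubb3* (13.5 and 16.8 CPM), *Nefm* (0.427 and 4.13 CPM) and *Nefl* (0.177 and 0.29 CPM) were higher there. Under the floor were the means of *Nefl* in both sets and of *Nefm* in numbers 1 to 4. So were those of *Rbfox3*, *Dcx*, *Syt1* and *Snap25* in numbers 5 to 8. No test is given for these differences. The part of any cell type in the levels of the adhesion genes was not tested. Ependymal markers (4 of 5 tested, *Rarres2* and *Ccdc153* higher) summed to 11.7 to 29.2 CPM and 23.3 to 48.5 CPM, with *Tmem212* at 0. Endothelial markers (3 of 6 tested, 1 higher, *Flt1*) summed to 0.67 to 11.6 CPM and 4.81 to 19.6 CPM, with *Cldn5* and *Cdh5* at 0. Pericyte or fibroblast markers (1 of 7 tested, *Cspg4*, not called) summed to 6.1 to 38.3 CPM and 5.63 to 65.0 CPM, and the 6 microglial markers, none of them tested, stayed under 2 CPM in sum.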

How the data were processed

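RNA from 16 cultures of *GFP*-NSPCs and *Dbx2*-NSPCs (8 each) was sequenced with the QuantSeq 3′ kit (100 ng of RNA per library), which reads the end of each transcript, so a read stands for a transcript whatever its length and isoforms are not told apart. After trimming (bbduk) and alignment to GRCm38 by STAR 2.5.0a with Ensembl annotation, the authors deposited CPM for 30386 genes. The counting tool and strand setting are not given in the sources used here. All 16 sample columns were used and 0 were left out. Whole reads were recovered from 99.962% to 100% of the values above 0 of each sample (tolerance 0.1 read). The floors allow for counting error alone, as no molecular identifiers were used to tell copies of a molecule apart.

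Groups follow the transgene label of each sample. Genes above 1 CPM in at least 4 samples were tested with limma 3.58.1 (R 4.3.3; lmFit, eBayes with trend) on log2(CPM + 0.5), 2-sided, with Benjamini-Hochberg adjustment over all 12533 and a threshold of 0.05. The cell line covariate of the study's model could not be fitted, since the labels do not give the line. The study's "biological replicates" are not described as separate animals, so p-values measure the spread between cultures. The fit of the transgene contrast had no term for the sets of numbers, so there that spread also holds the difference between the sets. For *Chl1* the standard error was 0.701 in that fit and 0.131 for the contrast within a set. The members and lists were chosen with earlier results of these data known. Named list genes were at most the 4 largest called changes of a list among genes whose mean in either group reached 10 CPM, and like genes were the 3 closest to *Nfasc*, *Chl1* and *Cadm3*. A few genes that this rule names are not reported here. Alternatives were pseudocounts of 0.1 and 2, median-of-ratios and TMM scaling, no filter and a filter of 10 CPM, eBayes without trend, the set of numbers as a covariate, each set alone, DESeq2 1.42.0 and edgeR 4.0.16 on the recovered reads, each sample left out, and the replicate number as a block. Same-numbered samples deviated together in all 8 pairs (r of the residuals from the group means 0.152 to 0.303), which by a fixed rule of over 0.1 pairs them. These residuals still hold the difference between the sets of numbers. Within the sets the r were -0.007 to 0.119, over 0.1 only at number 1, so a pairing beyond the set was not shown. By the residuals from the group means, 4 of 8 *GFP*-NSPC samples correlated best with their own number. Positions came from GENCODE M21 (GRCm38). The fits were tested on simulated data. Figures were drawn with matplotlib 3.10.9.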

Additional observations from a re-analysis of the deposited data

Results flagged for a closer look

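The transgene contrast differed between the samples numbered 1 to 4 and those numbered 5 to 8 for 5 genes, by the interaction term of limma. The log2 fold change in numbers 5 to 8 less that in numbers 1 to 4 was 1.68 for *Chl1*, -0.75 for *Nrcam*, 1.32 for *Cntn1*, 4.87 for *Cadm2* and 3.1 for *Cadm3*. The difference of *Cadm2* rests in part on 6 reads in *GFP*-NSPCs numbered 5 to 8, and that of *Cadm3* on 17 reads in *GFP*-NSPCs numbered 1 to 4 and 0 in numbers 5 to 8. What the numbers mark was not tested.

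The highest of the 8 *GFP*-NSPC values of *L1cam*, 0.55 CPM, stood apart from the other 7, which were at 0. It is 1 read. It was the only sample that stood apart in the 20 groups examined. With the other 7 at 0, any read would stand apart, so a chance rate of about 1 in 20 does not hold for such values.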

How the results depend on the processing

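The contrast between the transgenes chose the genes, so its member counts are a description that supports nothing. Of the members, 2 were past the threshold as higher and 3 as lower, beside 8.03% and 7.78% of all tested genes. The filter of 10 CPM left 1 higher, since it dropped *Cadm3*. Numbers 5 to 8 alone gave 4 higher, with *Cadm2* (2.60) and *Cadm4* added, and had *Nrcam* (-0.66) in place of *Cadm1* (-0.45) among the lower. Numbers 1 to 4 alone gave 5 lower, with *Cadm2* (-2.27) and *Cntn1* added. With the set of numbers as a covariate *Cadm4* was also past it, higher (log2 fold change 0.47, with edgeR 0.44), and *Cntn1*, lower (-0.64, with edgeR -0.85). *Cadm4* was so in numbers 5 to 8 alone (0.78) and *Cntn1* in numbers 1 to 4 alone (-1.29) as well. *Nrcam* changed sign in numbers 1 to 4 alone (0.09) and *Cntn1* in numbers 5 to 8 alone (0.02). *Cadm2* changed sign with a pseudocount of 2 (-0.29), in numbers 1 to 4 alone (-2.27), with edgeR and DESeq2 (-1.78 each) and with edgeR and the set of numbers (-1.11), and ran from -0.43 to 0.63 with samples left out. Over all genes, 1007 were higher and 975 lower, against 1572 higher with edgeR and the set of numbers, 1533 lower with that covariate in limma and 1467 lower in numbers 5 to 8 alone. The cause of these shifts was not tested. Scaling moved the median log2 fold change of all genes from -0.022 to 0.001 (median-of-ratios) and 0 (TMM).

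With the replicate number as a block, which treats same-numbered samples as pairs, 1359 genes were higher and 1364 lower. *Cadm4* passed the threshold in this contrast too and for the difference between the sets, and no other member crossed it.

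The comparisons of the sets within *GFP*-NSPCs and within *Dbx2*-NSPCs, and their alternatives, were added after seeing the data, as were both filters for the difference between the sets. *Nfasc* in *Dbx2*-NSPCs, at 0.00, changed sign with both scalings (-0.03), edgeR (-0.01) and samples left out (-0.14 to 0.10).

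Depth limits *L1cam*, *Cadm3* in *GFP*-NSPCs and *Cadm2* in *GFP*-NSPCs numbered 5 to 8, all at or near the floor.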
